A study of Mus musculus with 13 samples.

Results

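The data describe 40 neuronal and synaptic genes in RNA-seq of mouse neurovasculature, a brain fraction that the study prepared to enrich for blood vessels. The genes were chosen by name as a list of vesicle, cytoskeletal, receptor, glutamatergic and GABAergic genes, with no threshold on their measured values, and all 40 were found among the 47643 genes of the count table. They also all passed the filter on low counts, so they are 40 of the 17285 genes tested. The libraries came from 13 male CD1 mice of 8 to 10 weeks of age. The 4 sham-vehicle mice received PBS and the vehicle of the compound, a mixture of DMSO, Cremophor and saline. The 5 LPS-vehicle mice received lipopolysaccharide (LPS) of *Salmonella enterica* serotype typhimurium, a bacterial trigger of systemic inflammation, intraperitoneally at 3 mg/kg at 0, 6 and 24 h, with the same vehicle. The 4 LPS-CPD-4645 mice received the same LPS doses, each followed after 30 min by a subcutaneous dose of CPD-4645 at 10 mg/kg. The delay of 30 min is that of the labels and the methods, and another passage of the study gives a longer one. CPD-4645 is an inhibitor of monoacylglycerol lipase (MAGL), the enzyme that breaks down the endocannabinoid 2-arachidonoylglycerol. Brains were taken at 28 h, 4 h after the last LPS dose, and were not perfused. No sham mice given CPD-4645 were analysed here, so an effect of the compound without LPS cannot be told apart from its effect after LPS.

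Neurons signal at synapses, where vesicles loaded with a transmitter fuse with the membrane of the sending cell and receptors on the receiving cell respond. Glutamate excites and GABA inhibits, and each class of neuron carries its own set of enzymes, transporters, peptides and calcium-binding proteins. Systemic inflammation is known to alter neuronal activity and gene expression in the brain, and endocannabinoids act on receptors that sit largely on axon terminals. Whether such genes differed between the groups is asked here in a fraction that was prepared to hold vessels, so the first question is how much neuronal RNA it held.

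The 40 genes ranged from some of the most abundant transcripts to scarce ones. Per length, by the mean over the 13 libraries, in reads per kilobase of exon, scaled to library size (RPKM, which allows levels of different genes to be compared), 5 of the 40 genes stood among the 100 highest of the 17240 tested genes with a known length, 21 stood among the 1000 highest, and the lowest, *Gabrb2*, ranked 12214. In sham-vehicle mice the median of the 40 genes was 104.8 RPKM, with *Snap25*, a membrane fusion protein of the synapse, highest at 1546 RPKM and *Gabrb2*, a subunit of the GABA-A receptor, lowest at 2.28 RPKM. The median was 157.9 RPKM for 8 oligodendrocyte markers, 59.1 RPKM for 8 astrocyte markers, 12.03 RPKM for 8 endothelial cell markers, 10.5 RPKM for 6 microglia markers and 4.35 RPKM for 8 pericyte and smooth muscle markers. The defining endothelial marker *Pecam1* was at 7.1 RPKM and *Cldn5*, a tight junction protein, at 75.9 RPKM. No endothelial marker was at 0 in any library. Transcripts of vessels were thus present in a fraction labelled neurovasculature, and per length the median of the neuronal genes was higher. By a separate RNA assay (RT-qPCR), the study reported enrichment of *Gfap*, *Pdgfrb* and *Pecam1* and a low abundance of *Syp* and *Aif1*. No whole-brain library was analysed here, so enrichment over whole brain could not be measured. Between 1.73% and 2.06% of all counts in a library belonged to the 40 genes. Their own counts ran from 17 to 142429 in a library, and within the sham-vehicle group the coefficient of variation of a gene between mice was from 2.62% to 29.5%, with a median of 10.3%.

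**Figure D1:**
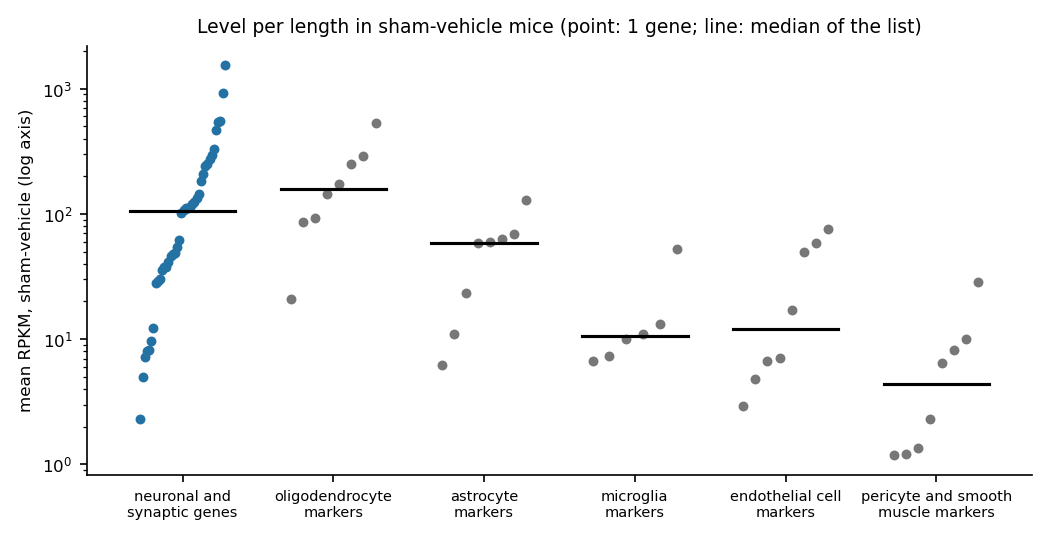
Mean level per length (RPKM, log axis) in the 4 sham-vehicle mice, 1 point per gene, for the 40 neuronal and synaptic genes and for markers of 5 other cell types, with a line at each list's median. The neuronal median of 104.8 RPKM lies above those of the astrocyte (59.1), endothelial (12.03), microglia (10.5) and pericyte (4.35) markers and below that of the oligodendrocyte markers (157.9).

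Total counts per library ran from 7813559 to 55133373, and the shallowest were those of mouse 3 of the LPS-vehicle group and mouse 1 of the LPS-CPD-4645 group. The share of mitochondrial counts lay between 6.47% and 12.7% in sham-vehicle, 4.84% and 7.05% in LPS-vehicle and 3.97% and 8.17% in LPS-CPD-4645 mice. The mice of a group did not share the extremes of the 40 genes evenly. In sham-vehicle, mouse 4 was the highest for 20 genes, and mice 2 and 1 were the lowest for 19 and 16. In LPS-vehicle, mouse 3 was the highest for 15 and mouse 4 the lowest for 18. In LPS-CPD-4645, mouse 4 was the highest for 27, and mice 1 and 3 were the lowest for 16 each. In bulk tissue, fewer neurons or neurites in a preparation and less RNA per neuron cannot be told apart. Each library is 1 mouse, so the p values below set differences between groups against the spread between mice. That spread includes differences between the preparations.

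After LPS, a share of the neuronal and synaptic genes fell, and all but *Gabrb2* by less than 2-fold. In LPS-vehicle against sham-vehicle mice, 17 of the 40 genes fell and none rose at an adjusted p of at most 0.05 (edgeR's quasi-likelihood test, Benjamini-Hochberg adjustment over all genes tested), where 8.86% of all genes tested fell and 11.1% rose. The share of the 40 that fell, 42.5%, was thus above the background, and the share that rose below it. The fold changes of 34 of the 40 were below 0, whether or not they passed, as were those of 8654 of all 17285 genes tested, and the median of the 40 was -0.27 on the log2 scale, against -0.00 for all genes tested. At the study's threshold, which also asks for a 2-fold change, 1 of the 40 was called lower (*Gabrb2*) and none higher, where 0.995% of all genes tested were called lower and 4.68% higher. None of the 40 was higher at an unadjusted p under 0.05 with edgeR, and DESeq2, limma-voom and limma-voom with quality weights called none higher at an adjusted p of 0.05 either. The values of the LPS-vehicle mice lay below those of all sham-vehicle mice for 16 of the 40 genes, where this held for 8.44% of all genes tested. The count of 17 that fell was 11 without sham-vehicle mouse 3, 12 without sham-vehicle mouse 4 and between 13 and 18 without any other mouse. *Tubb3*, *Homer1*, *Cck*, *Stx1a*, *Sst*, *Syn2*, *Nefl* and *Gabrb2* fell under each of the 23 alternative settings.

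CPD-4645 given after LPS was accompanied by higher levels of a small set of these genes. In LPS-CPD-4645 against LPS-vehicle mice, 8 of the 40 genes rose and 1 fell, or 20% and 2.5%, where 14.1% of all genes tested rose and 16.4% fell. The share that rose was thus not far above the background, and the share that fell was below it. The genes that rose were *Tubb3*, *Gabrb2*, *Sst*, *Cck*, *Map2*, *Camk2b*, *Rbfox3* and *Stx1a*, and the gene that fell was *Gria2*. The median of the 40 was 0.10 on the log2 scale, against -0.02 for all genes tested. None of the 40 passed the study's 2-fold threshold in either direction with edgeR, DESeq2, limma-voom or limma-voom with quality weights, where 1.7% of all genes tested were called higher and 4.19% lower by edgeR. At an unadjusted p under 0.05, 10 of the 40 were higher and 1 was lower. Groups did not overlap, with all LPS-CPD-4645 mice higher, for 4 of the 40 genes, against 11.1% of all genes tested, so this count was near the background. *Tubb3*, *Sst*, *Cck* and *Camk2b* rose under each of the 23 alternative settings, whereas *Stx1a* did not pass in 12 of them, *Rbfox3* in 10, *Gabrb2* in 2 and *Map2* in 1.

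Against sham-vehicle mice, the LPS-CPD-4645 mice were lower for 14 of the 40 genes and higher for 1, *Grin1*. These are 35.0% and 2.5% of the list, where 19.3% of all genes tested were lower and 19.5% higher. The median was -0.22 on the log2 scale, against -0.01 for all genes tested. None of the 40 passed the 2-fold threshold, with edgeR, DESeq2, limma-voom or limma-voom with quality weights, where 6.11% of all genes tested were called higher and 4.98% lower by edgeR. At an unadjusted p under 0.05, 18 of the 40 were lower and 2 higher. Of the 40 genes, 10 had all LPS-CPD-4645 mice below all sham-vehicle mice, where this held for 18.8% of all genes tested. The count of 14 was 8 without sham-vehicle mouse 3 or sham-vehicle mouse 4, 9 without LPS-CPD-4645 mouse 2 and 19 without LPS-CPD-4645 mouse 4, the mouse with the highest neuronal levels of its group. Of the 15 calls in either direction, only those of *Homer1* and *Slc17a6* passed under each of the 23 alternative settings. *Gad2* did not pass in 14 of them, *Syn1* in 7, and *Cck* and *Grin2b* in 6 each. The 3 comparisons share groups pairwise, so their results for a gene are given side by side below and are not independent of each other.

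**Figure D2:**
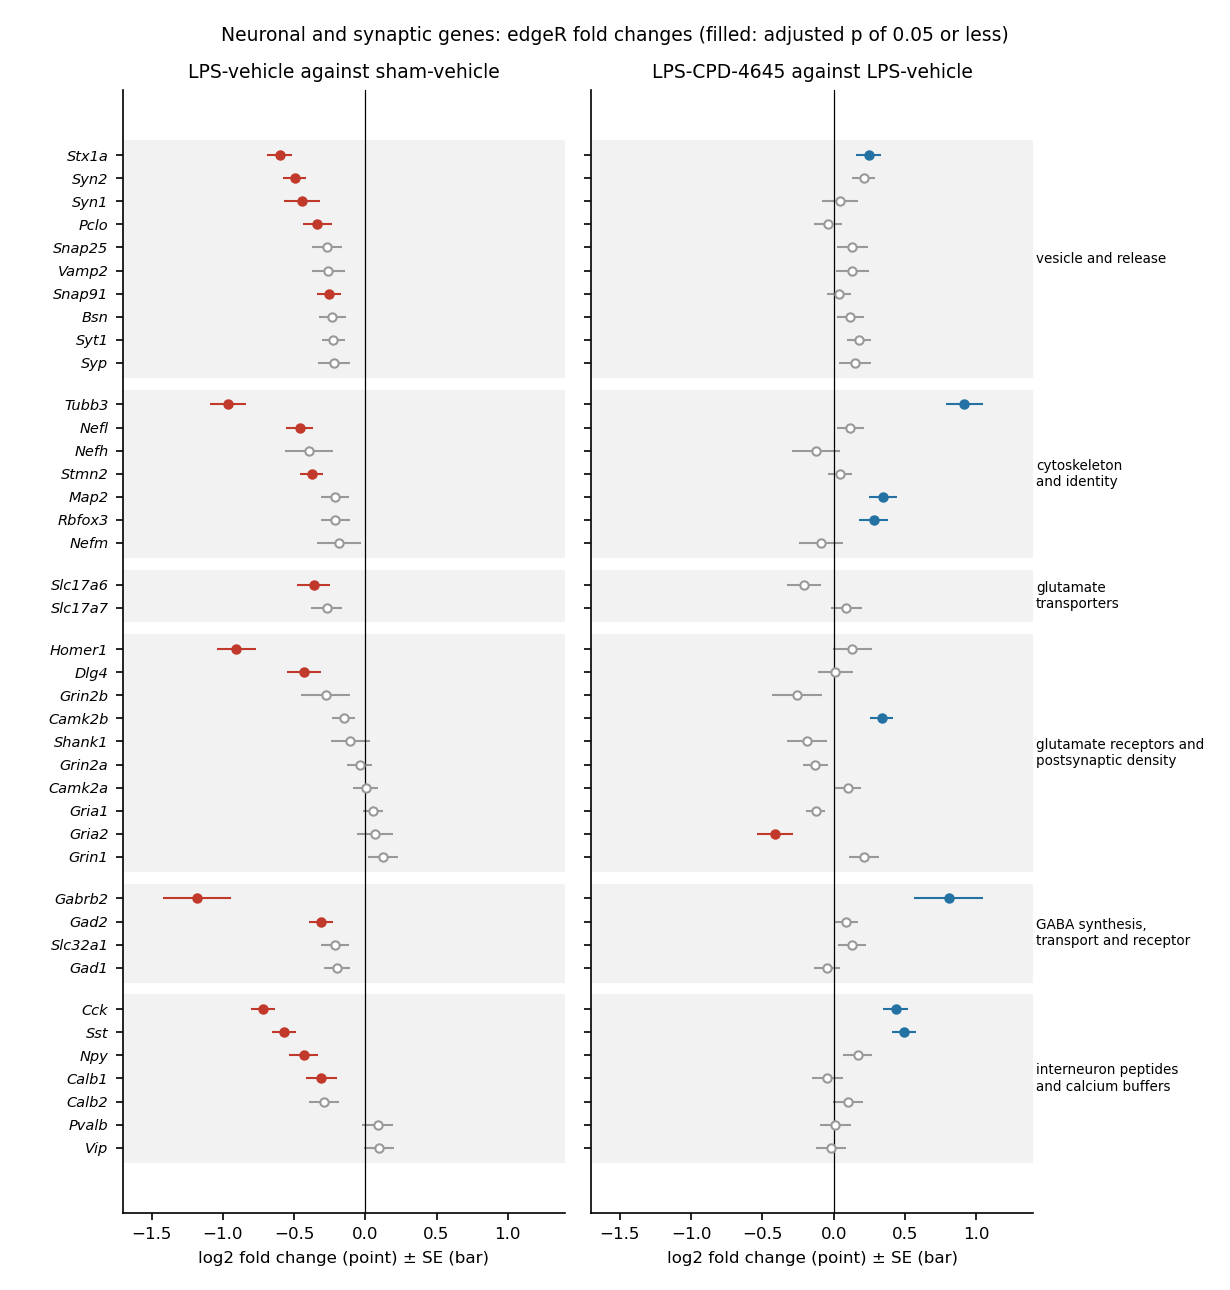
Log2 fold changes (points) with standard errors (bars) of the 40 genes, ordered by role, in LPS-vehicle against sham-vehicle mice (left) and LPS-CPD-4645 against LPS-vehicle mice (right). Filled points, which passed an adjusted p of 0.05, show 17 falls and no rise on the left and 8 rises and 1 fall on the right, and both panels use the same 5 LPS-vehicle mice.

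In 3 of the 40 genes, *Tubb3*, *Sst* and *Cck*, every LPS-vehicle mouse lay below every mouse of both other groups, which is 7.5% of the 40 and was seen in 1.52% of all genes tested. *Tubb3* encodes a tubulin of neuronal microtubules and lies at chr8:123411424-123422015 (GRCm38, ENSMUSG00000062380). It measured 412, 404, 527 and 466 CPM (counts scaled to a library of 1000000) in the sham-vehicle mice, 218, 273, 244, 177 and 249.5 CPM in the LPS-vehicle mice and 327, 482, 452 and 489.9 CPM in the LPS-CPD-4645 mice. Log2 fold changes (log2FC) are given ± standard error here and below. *Tubb3* had log2FC -0.96 ± 0.13 at adjusted p = 2.99e-05 after LPS and log2FC 0.92 ± 0.13 at adjusted p = 7.34e-05 for LPS-CPD-4645 against LPS-vehicle mice. For LPS-CPD-4645 against sham-vehicle mice it had log2FC -0.05 ± 0.14 at adjusted p = 0.81, with a 95% interval of -0.34 to 0.24, and these groups overlapped. LPS-CPD-4645 mouse 1 was the lowest of its group, and without it the rise passed the 2-fold threshold, at a log2 fold change of 1.04. *Tubb3*, like *Stx1a* and *Homer1* below, was picked for a full account after its values were seen.

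*Sst* encodes somatostatin, the peptide of a class of inhibitory interneurons, at chr16:23889573-23890958 (ENSMUSG00000004366). Its values were 374, 409.7, 409.5 and 384 CPM in sham-vehicle, 252, 281, 299.7, 234 and 263 CPM in LPS-vehicle and 328, 399, 380.4 and 388 CPM in LPS-CPD-4645 mice. The LPS-vehicle mice lay below every mouse of both other groups, which overlapped with each other. The fit gave log2FC -0.57 ± 0.08 at adjusted p = 7.35e-05 after LPS, log2FC 0.49 ± 0.08 at adjusted p = 0.000314 for LPS-CPD-4645 against LPS-vehicle, and log2FC -0.08 ± 0.09 at adjusted p = 0.529 for LPS-CPD-4645 against sham-vehicle, with a 95% interval of -0.26 to 0.11. *Cck*, which encodes the peptide cholecystokinin of both cortical interneurons and excitatory cells, lies at chr9:121489824-121495694 (ENSMUSG00000032532). It measured 593, 675, 685 and 615 CPM in sham-vehicle, 374, 384, 432, 346 and 416 CPM in LPS-vehicle and 474, 510.0, 538 and 586 CPM in LPS-CPD-4645 mice. The 3 groups did not overlap, with the LPS-CPD-4645 mice in between. *Cck* had the lowest adjusted p of the 40 genes after LPS, with log2FC -0.72 ± 0.09 at adjusted p = 7.7e-06. It rose under CPD-4645 (log2FC 0.43 ± 0.09 at adjusted p = 0.00107), and was below sham-vehicle in the treated mice (log2FC -0.28 ± 0.09 at adjusted p = 0.0186), a call that was lost without sham-vehicle mouse 2 or 3 or LPS-CPD-4645 mouse 1 or 2.

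**Figure D3:**
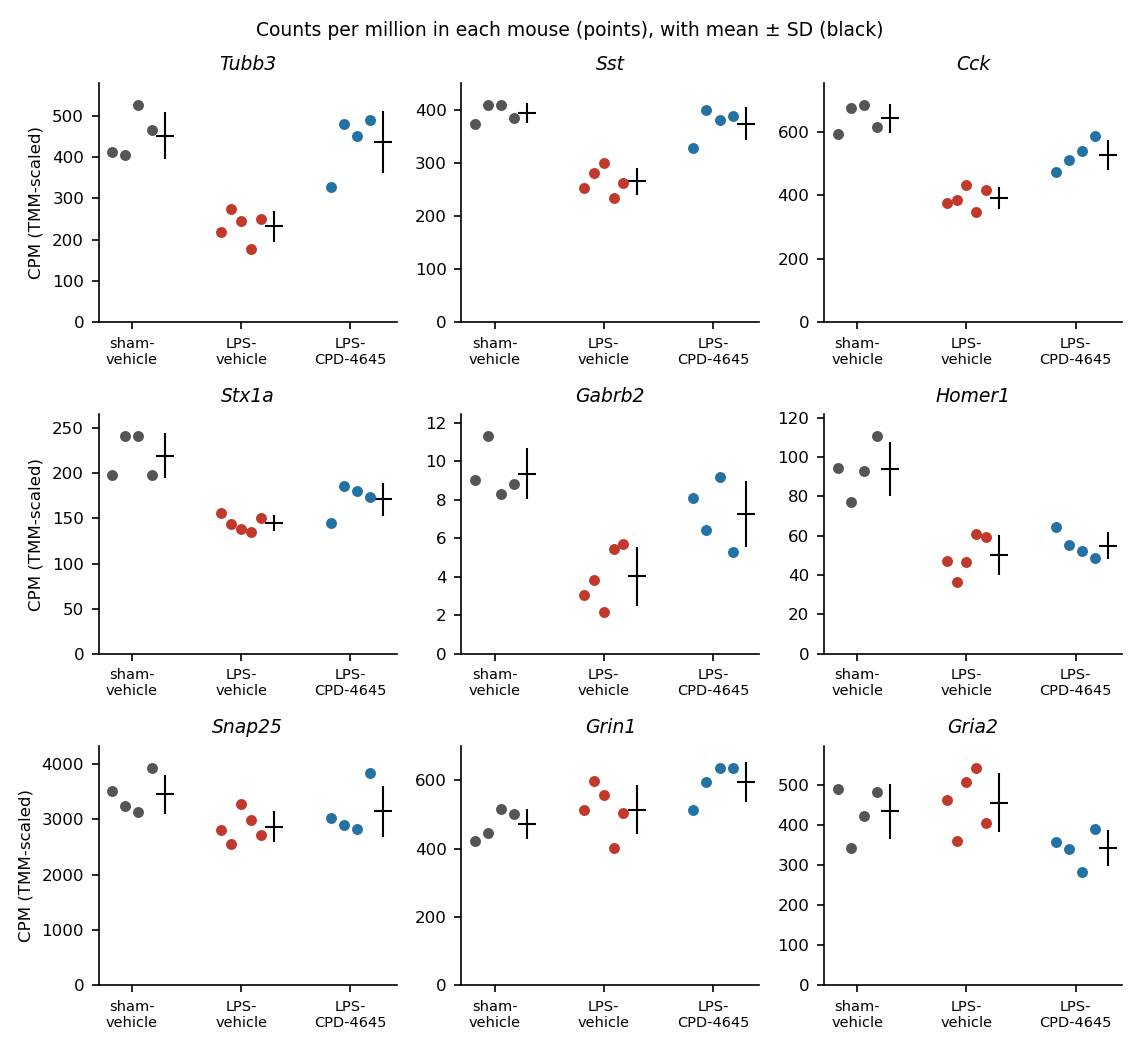
CPM of 9 genes in each mouse (points) with the group mean and SD (black) for sham-vehicle (n = 4), LPS-vehicle (n = 5) and LPS-CPD-4645 (n = 4) mice, on axes that start at 0. For *Tubb3*, *Sst* and *Cck* the LPS-vehicle mice lie below all others, *Homer1* is low in both LPS groups, and *Snap25* and *Grin1* overlap between groups.

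The promoters of 4 genes that both fell after LPS and rose under CPD-4645 are shown (*Gabrb2*, which has several starts, is left out) because that of *Sst* carries the textbook cyclic AMP response element (CRE), and the others can be read against it. The sequences are the 250 bases before the RefSeq start on build GRCm38.p6, 5′ to 3′ on the strand of the gene, with the CRE half-site TGACG, on either strand (CGTCA), in capitals.
*Sst* (chr16:23890845-23891094, minus strand): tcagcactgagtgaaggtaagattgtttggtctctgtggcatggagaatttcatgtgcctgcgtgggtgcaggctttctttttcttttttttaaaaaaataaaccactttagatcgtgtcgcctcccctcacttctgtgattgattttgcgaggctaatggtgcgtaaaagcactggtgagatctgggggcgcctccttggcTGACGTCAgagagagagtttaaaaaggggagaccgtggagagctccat
*Cck* (chr9:121495695-121495944, minus strand): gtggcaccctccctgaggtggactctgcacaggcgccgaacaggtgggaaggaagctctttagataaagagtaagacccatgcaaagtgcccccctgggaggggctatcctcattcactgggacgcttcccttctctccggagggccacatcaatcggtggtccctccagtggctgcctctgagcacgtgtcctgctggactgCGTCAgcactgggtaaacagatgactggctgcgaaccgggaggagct
*Stx1a* (chr5:135023232-135023481, plus strand): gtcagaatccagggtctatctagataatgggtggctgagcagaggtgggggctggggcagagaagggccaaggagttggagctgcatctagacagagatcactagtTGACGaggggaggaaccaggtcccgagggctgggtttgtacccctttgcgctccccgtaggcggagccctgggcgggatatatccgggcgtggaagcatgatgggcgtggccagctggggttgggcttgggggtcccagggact
*Tubb3* (chr8:123411303-123411552, plus strand): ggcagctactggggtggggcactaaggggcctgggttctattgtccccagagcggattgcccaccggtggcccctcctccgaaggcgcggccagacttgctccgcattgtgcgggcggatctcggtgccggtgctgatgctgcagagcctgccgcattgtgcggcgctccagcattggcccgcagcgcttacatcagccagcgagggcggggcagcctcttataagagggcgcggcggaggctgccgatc
The *Sst* window held the full palindromic element TGACGTCA, whose 2 overlapping half-sites begin 48 and 45 bases before the start, the *Cck* window 1 half-site 47 bases before it and the *Stx1a* window 1 half-site 144 bases before it. The *Tubb3* window held none. The gene spans given for each gene are those of GENCODE, whose start lies 114 bases upstream of the RefSeq start for *Sst* and 129 bases upstream for *Tubb3*, so both windows run into the spans and the *Sst* element lies inside one. The 2 starts are the same for *Cck* and *Stx1a*. Of the 40 genes, 27 had a sequence, and 10 of these, or 37.0%, held a half-site within 250 bases of a start, against 19.8% of 27025 genes. The 27025 are all genes with a promoter sequence, tested here or not, and a match before any start of a gene counted. Whether the shares differed was not tested. The full element was found in *Sst* and *Syn1*, against 1.77% of the 27025 genes. A match describes these letters only, and binding was not measured.

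Of the 10 genes of vesicle docking and release, 5 fell after LPS, where 8.86% of all genes tested fell, and 1 rose under CPD-4645, where 14.1% rose. After LPS the fold changes of the 10 ran from -0.60 to -0.22 on the log2 scale. *Stx1a*, a membrane fusion protein at the active zone (chr5:135023482-135051100, ENSMUSG00000007207), was measured at 198, 241, 241 and 198 CPM in sham-vehicle, 157, 144, 138, 135 and 150.4 CPM in LPS-vehicle and 145, 186, 180.2 and 174 CPM in LPS-CPD-4645 mice. All LPS-vehicle mice lay below all sham-vehicle mice (log2FC -0.60 ± 0.09 at adjusted p = 9.24e-05). Its rise under CPD-4645 (log2FC 0.25 ± 0.09 at adjusted p = 0.0471) was close to the threshold, the groups overlapped through LPS-CPD-4645 mouse 1, and it was still below sham-vehicle (log2FC -0.36 ± 0.10 at adjusted p = 0.00644). *Syn1* and *Syn2*, which tether vesicles in reserve, fell (log2FC -0.45 ± 0.13 at adjusted p = 0.017 and log2FC -0.50 ± 0.08 at adjusted p = 0.000231). *Pclo*, a scaffold of the active zone, and *Snap91*, a clathrin adaptor of vesicle recycling, fell as well (log2FC -0.34 ± 0.10 at adjusted p = 0.0222 and log2FC -0.25 ± 0.08 at adjusted p = 0.0395). The fall of *Snap91* was lost in 9 of the 23 alternative settings, that of *Pclo* in 4 and that of *Syn1* in 3.

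The 4 most abundant vesicle genes per length, *Snap25*, *Syp*, *Vamp2* and *Syt1*, passed in no comparison. Where 3 fits of a gene follow each other without a label, here and below, their order is LPS-vehicle against sham-vehicle, LPS-CPD-4645 against LPS-vehicle and LPS-CPD-4645 against sham-vehicle. *Snap25* was at 3504, 3239, 3137 and 3933 CPM in sham-vehicle, 2803, 2555, 3282, 2994 and 2707 CPM in LPS-vehicle and 3023, 2896, 2817 and 3830 CPM in LPS-CPD-4645 mice, and the groups overlapped in each comparison (log2FC -0.27 ± 0.11 at adjusted p = 0.0889 after LPS, log2FC 0.13 ± 0.11 at adjusted p = 0.376 for LPS-CPD-4645 against LPS-vehicle and log2FC -0.14 ± 0.11 at adjusted p = 0.361 against sham-vehicle). *Syt1*, the calcium sensor of release, was at 1557, 1457, 1641 and 1688 CPM, 1290, 1362, 1406, 1358 and 1370 CPM and 1445, 1544, 1400 and 1750 CPM in the same order of groups. All its LPS-vehicle values lay below the sham-vehicle values, yet the test after LPS gave log2FC -0.22 ± 0.08 at adjusted p = 0.0604, and the other comparisons log2FC 0.18 ± 0.08 at adjusted p = 0.108 and log2FC -0.05 ± 0.09 at adjusted p = 0.699. *Syp*, a membrane protein of the vesicle, was at 2127, 2383, 2484 and 2547 CPM in sham-vehicle, 1962, 2450, 2116, 1721 and 1998 CPM in LPS-vehicle and 1905, 2181, 2280 and 2739 CPM in LPS-CPD-4645 mice. Its groups overlapped throughout (log2FC -0.22 ± 0.11 at adjusted p = 0.187, log2FC 0.15 ± 0.11 at adjusted p = 0.323 and log2FC -0.07 ± 0.12 at adjusted p = 0.684 in the 3 comparisons), and 33.8% of its exon bases are shared with *Gm14703* on the other strand, whose reads may have been counted with it. *Bsn*, a scaffold of the active zone, did not pass either.

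Of the 7 cytoskeletal and identity genes, *Tubb3*, *Nefl* and *Stmn2* fell after LPS, where 8.86% of all genes tested fell. *Nefl*, the light subunit of neurofilaments, was at 373, 341, 377 and 412 CPM in sham-vehicle, 239.5, 297, 282, 241 and 305 CPM in LPS-vehicle and 312, 292, 258 and 322 CPM in LPS-CPD-4645 mice. Both LPS groups lay below all sham-vehicle mice (log2FC -0.46 ± 0.09 at adjusted p = 0.00162 after LPS, and log2FC -0.34 ± 0.10 at adjusted p = 0.0101 for LPS-CPD-4645 against sham-vehicle), and they overlapped with each other (log2FC 0.12 ± 0.09 at adjusted p = 0.362). *Nefl* and *Nefm* overlap on opposite strands over 32.8% of the exon bases of *Nefl* and 19.2% of those of *Nefm*, so reads could have been counted for either. *Stmn2*, a regulator of microtubules in axons, was at 571, 541, 522 and 655 CPM in sham-vehicle, 430.4, 437, 455, 427 and 454 CPM in LPS-vehicle and 407, 444, 456 and 511 CPM in LPS-CPD-4645 mice, and again both LPS groups lay below all sham-vehicle mice. The fit gave log2FC -0.38 ± 0.08 at adjusted p = 0.00308 after LPS, log2FC 0.05 ± 0.08 at adjusted p = 0.712 for LPS-CPD-4645 against LPS-vehicle and log2FC -0.33 ± 0.09 at adjusted p = 0.00571 against sham-vehicle.

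*Rbfox3*, which encodes the nuclear neuronal marker NeuN, was at 199, 194, 240.4 and 269 CPM in sham-vehicle, 187, 202, 195, 192 and 198 CPM in LPS-vehicle and 197, 256, 219.6 and 274 CPM in LPS-CPD-4645 mice. The groups overlapped in every comparison. It did not pass after LPS (log2FC -0.21 ± 0.10 at adjusted p = 0.175) or between LPS-CPD-4645 and sham-vehicle (log2FC 0.07 ± 0.11 at adjusted p = 0.646), and its rise under CPD-4645 was at the edge of the threshold (log2FC 0.28 ± 0.10 at adjusted p = 0.0495). *Map2*, a microtubule protein of dendrites, rose under CPD-4645 (log2FC 0.35 ± 0.10 at adjusted p = 0.0116). *Nefh* was lower in LPS-CPD-4645 than in sham-vehicle mice (log2FC -0.52 ± 0.18 at adjusted p = 0.0267), a call lost without any 1 of 4 mice (sham-vehicle 3 and 4, LPS-CPD-4645 2 and 3), and *Nefm* passed in no comparison.

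Of the vesicular glutamate transporters, which mark excitatory cells, *Slc17a6* passed and *Slc17a7* did not. *Slc17a6*, typical of subcortical neurons, was at 162, 120.1, 138 and 172 CPM in sham-vehicle, 119, 106, 122, 130.0 and 99.7 CPM in LPS-vehicle and 111, 95.7, 79.6 and 114 CPM in LPS-CPD-4645 mice. All LPS-CPD-4645 mice lay below all sham-vehicle mice, and it fell in both LPS groups against sham-vehicle (log2FC -0.36 ± 0.12 at adjusted p = 0.0363 without and log2FC -0.57 ± 0.12 at adjusted p = 0.00153 with the compound), while the LPS groups overlapped (log2FC -0.21 ± 0.12 at adjusted p = 0.2). The fall after LPS was lost in 7 of the 23 alternative settings, among them those without sham-vehicle mouse 1, 3 or 4 or LPS-vehicle mouse 1, 2 or 5. *Slc17a7*, typical of cortex, was at 779, 887, 979 and 914 CPM in sham-vehicle, 693, 844, 690.3, 624 and 833 CPM in LPS-vehicle and 665, 729, 858 and 880.1 CPM in LPS-CPD-4645 mice. Its groups overlapped, and no comparison passed (log2FC -0.27 ± 0.11 at adjusted p = 0.0863, log2FC 0.09 ± 0.11 at adjusted p = 0.569 and log2FC -0.18 ± 0.11 at adjusted p = 0.215). Whether the 2 transporters differed from each other in response was not tested.

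Glutamate receptors and their postsynaptic partners had the median nearest to 0 of the 6 groups by role after LPS, at -0.07 on the log2 scale, with 6 of 10 below 0, and only the scaffold genes *Homer1* and *Dlg4* fell. Of all 17285 genes tested, 8654 were below 0 and 8.86% fell, so the count below 0 was near the background. *Homer1* (chr13:93299635-93405129, ENSMUSG00000007617) links metabotropic glutamate receptors to the postsynaptic density and was measured at 94.5, 77.1, 92.9 and 111 CPM in sham-vehicle, 47.1, 36.2, 46.8, 60.9 and 59.3 CPM in LPS-vehicle and 64.3, 55.2, 52.0 and 48.6 CPM in LPS-CPD-4645 mice. Both LPS groups lay below every sham-vehicle mouse (log2FC -0.90 ± 0.14 at adjusted p = 9.98e-05 without and log2FC -0.77 ± 0.14 at adjusted p = 0.000418 with the compound), and they overlapped with each other (log2FC 0.13 ± 0.14 at adjusted p = 0.496). *Dlg4*, which encodes the scaffold PSD-95, was at 299.9, 322, 395 and 320.0 CPM in sham-vehicle, 269.8, 298, 208, 196 and 266 CPM in LPS-vehicle and 214, 267, 235 and 283 CPM in LPS-CPD-4645 mice. Both LPS groups lay below all sham-vehicle mice here too (log2FC -0.43 ± 0.12 at adjusted p = 0.0174 without and log2FC -0.42 ± 0.13 at adjusted p = 0.0155 with the compound, and log2FC 0.01 ± 0.12 at adjusted p = 0.956 between the LPS groups). Without sham-vehicle mouse 3 both calls of *Dlg4* were lost (adjusted p = 0.0764 after LPS and 0.0684 with the compound, edgeR's quasi-likelihood test), and the second was also lost without LPS-CPD-4645 mouse 1 (adjusted p = 0.0564).

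*Gria2*, the AMPA receptor subunit that limits calcium entry, was the only one of the 40 genes that fell under CPD-4645. It measured 489, 341, 422 and 482 CPM in sham-vehicle, 461, 360.4, 506, 542 and 404 CPM in LPS-vehicle and 356, 340.2, 282 and 388 CPM in LPS-CPD-4645 mice. Of the LPS-CPD-4645 mice, 3 lay below all LPS-vehicle mice, and mouse 4 lay within their range (log2FC -0.41 ± 0.13 at adjusted p = 0.0214). The other comparisons gave log2FC 0.07 ± 0.13 at adjusted p = 0.766 after LPS and log2FC -0.34 ± 0.13 at adjusted p = 0.051 for LPS-CPD-4645 against sham-vehicle. The fall was lost without LPS-vehicle mouse 4 and without LPS-CPD-4645 mouse 2 or 3. *Grin1*, the obligatory subunit of NMDA receptors, was at 423, 445, 517 and 502 CPM in sham-vehicle, 512, 598, 556, 403 and 504 CPM in LPS-vehicle and 514, 594, 636 and 637 CPM in LPS-CPD-4645 mice. The groups overlapped, and it was higher in LPS-CPD-4645 than in sham-vehicle mice (log2FC 0.34 ± 0.11 at adjusted p = 0.0237) but passed in neither comparison with LPS-vehicle (log2FC 0.12 ± 0.11 at adjusted p = 0.462 and log2FC 0.21 ± 0.11 at adjusted p = 0.139). Of its exon bases, 29.9% are shared with the antisense gene *Grin1os*, and the call was lost without sham-vehicle mouse 1 or LPS-CPD-4645 mouse 3.

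*Camk2a*, the kinase subunit abundant in excitatory synapses, was at 574, 639, 675 and 643 CPM in sham-vehicle, 719, 699.8, 538, 596 and 614 CPM in LPS-vehicle and 681, 641, 672 and 723 CPM in LPS-CPD-4645 mice. It overlapped between all groups, with differences of log2FC 0.00 ± 0.09 at adjusted p = 0.991, log2FC 0.10 ± 0.09 at adjusted p = 0.415 and log2FC 0.10 ± 0.09 at adjusted p = 0.412 and a 95% interval after LPS of -0.18 to 0.19. Its partner *Camk2b*, chosen for this account after its values were seen, rose under CPD-4645, at 833, 869, 1029 and 946 CPM against 693, 753, 757, 691 and 744 CPM in LPS-vehicle mice, without overlap (log2FC 0.34 ± 0.08 at adjusted p = 0.00383). *Grin2b* was lower in LPS-CPD-4645 than in sham-vehicle mice (log2FC -0.53 ± 0.18 at adjusted p = 0.0266), a call lost without any 1 of LPS-CPD-4645 mice 1, 2 and 3. It was also lost without sham-vehicle mouse 4, which at 178.6 CPM stood apart from the 102.3 to 110.9 CPM of the other sham-vehicle mice, and the log2FC was then -0.30 at adjusted p = 0.155. *Grin2a*, *Gria1* and *Shank1* passed in no comparison.

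The 4 genes of GABA synthesis, transport and reception were all below 0 after LPS, as were 8654 of all 17285 genes tested. *Gabrb2* (chr11:42419757-42629028, ENSMUSG00000007653) was the scarcest of the 40 genes and had the largest fold change after LPS. It was at 9.01, 11.3, 8.29 and 8.84 CPM in sham-vehicle, 3.02, 3.82, 2.14, 5.42 and 5.69 CPM in LPS-vehicle and 8.06, 6.43, 9.18 and 5.3 CPM in LPS-CPD-4645 mice. The LPS-vehicle values lay below all sham-vehicle values (log2FC -1.18 ± 0.24 at adjusted p = 0.00167), and the LPS-CPD-4645 values lay above all LPS-vehicle values in 3 mice and within them in mouse 4 (log2FC 0.81 ± 0.24 at adjusted p = 0.0168). That rise was lost without LPS-CPD-4645 mouse 3 and without the 2 shallowest libraries, and the difference from sham-vehicle was log2FC -0.37 ± 0.25 at adjusted p = 0.253.

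*Gad1* and *Gad2* make GABA from glutamate, and *Slc32a1* loads it into vesicles. *Gad2* was at 218, 216, 206 and 231 CPM in sham-vehicle, 156, 170.5, 197, 187 and 168 CPM in LPS-vehicle and 195, 182, 163 and 204 CPM in LPS-CPD-4645 mice. Both LPS groups lay below all sham-vehicle mice (log2FC -0.31 ± 0.08 at adjusted p = 0.0128 without and log2FC -0.23 ± 0.09 at adjusted p = 0.0497 with the compound, the second lost in 14 of the 23 alternative settings), and the LPS groups overlapped (log2FC 0.09 ± 0.08 at adjusted p = 0.469). *Gad1* was at 634, 562, 629.6 and 674 CPM in sham-vehicle, 583, 512, 543, 553 and 529.9 CPM in LPS-vehicle and 593, 434, 503 and 583 CPM in LPS-CPD-4645 mice. It overlapped between groups and did not pass (log2FC -0.20 ± 0.09 at adjusted p = 0.139, log2FC -0.04 ± 0.09 at adjusted p = 0.749 and log2FC -0.24 ± 0.10 at adjusted p = 0.0541). *Slc32a1*, which shares 24.9% of its exon bases with *Gm14205* on the other strand, was at 159, 206, 178 and 156 CPM in sham-vehicle, 138, 166, 155, 135 and 158 CPM in LPS-vehicle and 152, 146, 186 and 173 CPM in LPS-CPD-4645 mice. It overlapped as well (log2FC -0.21 ± 0.10 at adjusted p = 0.143, log2FC 0.13 ± 0.10 at adjusted p = 0.35 and log2FC -0.09 ± 0.10 at adjusted p = 0.542).

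Among the peptides and calcium-binding proteins that mark classes of interneurons, *Sst*, *Cck*, *Npy* and *Calb1* fell after LPS, and *Pvalb*, *Vip* and *Calb2* did not pass. The falls are 4 of 7 genes, where 8.86% of all genes tested fell. *Npy*, which encodes neuropeptide Y, was at 127, 135, 159 and 143 CPM in sham-vehicle, 97.4, 93.1, 116, 102 and 114 CPM in LPS-vehicle and 110.5, 125, 97.2 and 137 CPM in LPS-CPD-4645 mice. All LPS-vehicle mice lay below all sham-vehicle mice (log2FC -0.43 ± 0.10 at adjusted p = 0.00513), and the LPS-CPD-4645 mice overlapped with both other groups (log2FC 0.17 ± 0.10 at adjusted p = 0.22 and log2FC -0.26 ± 0.11 at adjusted p = 0.0594). *Pvalb*, the calcium buffer of fast-spiking interneurons, was at 108, 122, 124 and 118 CPM in sham-vehicle, 104, 132, 157, 106 and 130.2 CPM in LPS-vehicle and 114, 118, 126 and 146 CPM in LPS-CPD-4645 mice. It overlapped throughout (log2FC 0.09 ± 0.11 at adjusted p = 0.641, log2FC 0.01 ± 0.11 at adjusted p = 0.949 and log2FC 0.10 ± 0.12 at adjusted p = 0.529), with a 95% interval after LPS of -0.14 to 0.32. *Vip*, which encodes vasoactive intestinal peptide, was at 81.2, 58.2, 74.4 and 76.7 CPM in sham-vehicle, 70.1, 70.5, 82.7, 84.2 and 81.3 CPM in LPS-vehicle and 90.0, 73.9, 68.2 and 75.3 CPM in LPS-CPD-4645 mice, and it overlapped throughout (log2FC 0.10 ± 0.10 at adjusted p = 0.578, log2FC -0.02 ± 0.10 at adjusted p = 0.919 and log2FC 0.08 ± 0.11 at adjusted p = 0.601). The 95% interval after LPS was -0.12 to 0.31 for *Vip* and -0.74 to -0.39 for *Sst*, and the difference between the genes was not tested. The fall of *Calb1* (log2FC -0.31 ± 0.11 at adjusted p = 0.0482) was lost in 13 of the 23 alternative settings.

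Falls were also seen among other neuronal genes. A separate list of 68 further neuronal genes, of which 67 were tested, had 20 that fell and 3 that rose after LPS, with a median log2FC of -0.22, where 8.86% of all genes tested fell and 11.1% rose. *Neurod6*, a transcription factor of excitatory cortical neurons, was the only one called lower at the 2-fold threshold (log2FC -1.12 ± 0.13 at adjusted p = 8.01e-06), at a mean of 31.3 ± 5.41 CPM (SD, n = 5) against 68.1 ± 8.66 CPM (n = 4). Under CPD-4645 against LPS-vehicle, 12 of the 67 rose and 13 fell, with a median of -0.03, where 14.1% of all genes tested rose and 16.4% fell, so both counts were near the background. The only call past 2-fold was *Gabra6*, a GABA-A receptor subunit of cerebellar granule cells (log2FC 3.603 ± 1.26 at adjusted p = 0.0377). *Gabra6* was at 5.38 CPM in LPS-CPD-4645 mouse 3, at 1.02 CPM in mouse 4 of that group and at or below 0.63 CPM elsewhere, and the cerebellar gene *Pcp2*, which did not pass the filter on low counts, was at 3.39 CPM in the same mouse 3 and at 1.37 CPM in mouse 4. The other 3 of the 5 cerebellar genes, *Pcp4* (log2FC 0.23 at adjusted p = 0.414), *Cbln1* (0.31 at adjusted p = 0.0944) and *Neurod1* (-0.08 at adjusted p = 0.761, edgeR's quasi-likelihood test for all), did not pass under CPD-4645 against LPS-vehicle. LPS-CPD-4645 against sham-vehicle gave 26 lower and 5 higher among the 67, where 19.3% of all genes tested were lower and 19.5% higher. Past 2-fold were *Kcna1*, a potassium channel, higher (log2FC 1.13 ± 0.18 at adjusted p = 8.89e-05), and *Rims1*, a scaffold of the active zone, *Elavl2*, a neuronal RNA-binding protein, and *Neurod6*, lower (log2FC -1.19 ± 0.11 at adjusted p = 2.9e-07, log2FC -1.13 ± 0.16 at adjusted p = 2.9e-05 and log2FC -1.39 ± 0.14 at adjusted p = 1.14e-06).

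When the libraries were scaled to these further neuronal genes in place of all genes, which sets the comparison within neuronal RNA and was added after seeing the data, the median of all genes tested rose to 0.20 on the log2 scale in LPS-vehicle against sham-vehicle, and that of the 40 genes moved to -0.06. Of the 40, 8 fell and 2 rose, where 2.4% of all genes tested fell and 21.3% rose on this scale, so the count that rose was below the background. With the libraries scaled to all genes 17 fell and none rose, and all 8 were among the 17. These 8 were *Tubb3* (log2FC -0.76 ± 0.12 at adjusted p = 0.000151), *Homer1* (log2FC -0.69 ± 0.14 at adjusted p = 0.00173), *Cck* (log2FC -0.52 ± 0.09 at adjusted p = 0.000249), *Sst* (log2FC -0.37 ± 0.09 at adjusted p = 0.00501), *Stx1a* (log2FC -0.40 ± 0.11 at adjusted p = 0.0118), *Gabrb2* (log2FC -0.98 ± 0.27 at adjusted p = 0.0116), *Syn2* (log2FC -0.29 ± 0.09 at adjusted p = 0.0291) and *Nefl* (log2FC -0.26 ± 0.09 at adjusted p = 0.0393). The receptor subunits *Grin1* (log2FC 0.33 ± 0.10 at adjusted p = 0.0235) and *Gria1* (log2FC 0.26 ± 0.08 at adjusted p = 0.0231) were the 2 that rose relative to other neuronal genes. In LPS-CPD-4645 against LPS-vehicle, 8 rose and 1 fell on this scale, as on the other, where 13% of all genes tested rose and 13.4% fell, and 7 of the rises were shared. *Stx1a* no longer passed and *Syt1* did (log2FC 0.19 ± 0.07 at adjusted p = 0.0377). Against sham-vehicle, the split of 14 lower and 1 higher became 2 lower, *Homer1* and *Slc17a6*, and 7 higher. On this scale 9.37% of all genes tested were lower and 31.7% higher, so both counts were below the background. The median of the 40 moved to -0.00, with that of all genes at 0.21. The sign of the fold change turned from below to above 0 on this scale for 6 of the 40 genes after LPS (*Rbfox3*, *Nefm*, *Camk2b*, *Grin2a*, *Shank1* and *Gad1*), for *Vip* in LPS-CPD-4645 against LPS-vehicle mice and for 13 in LPS-CPD-4645 against sham-vehicle mice (*Syp*, *Syt1*, *Snap25*, *Vamp2*, *Bsn*, *Snap91*, *Tubb3*, *Slc17a7*, *Grin2a*, *Gria1*, *Slc32a1*, *Sst* and *Calb2*). None of these had passed the test in that comparison.

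Markers of other cell types moved between the same groups. The endothelial markers summed to 406 to 654 CPM in sham-vehicle, 482 to 1027 CPM in LPS-vehicle and 596 to 807 CPM in LPS-CPD-4645 mice, and after LPS 5 of 8 rose and 2 fell, with a median of 0.71 on the log2 scale. The 40 neuronal genes summed to 19650 to 22400 CPM in sham-vehicle, 16260 to 18120 CPM in LPS-vehicle and 17600 to 21740 CPM in LPS-CPD-4645 mice. The oligodendrocyte markers summed to 5138 to 7226, 3765 to 4931 and 4250 to 5386 CPM in the same order, with 4 of 8 lower and 1 higher after LPS, and the astrocyte markers to 1649 to 2131, 2189 to 2832 and 2025 to 2607 CPM, with 3 of 8 higher. Neutrophil markers summed to 0.84 to 4.28, 47.2 to 194 and 3.5 to 17.3 CPM, with all 5 tested higher after LPS and lower under CPD-4645, and 4 of the 6 listed at 0 in at least 1 library. Microglia markers summed to 199 to 276, 161 to 285 and 141 to 188 CPM, pericyte and smooth muscle markers to 175 to 265, 141 to 210 and 161 to 221 CPM, choroid plexus markers to 338 to 711, 169 to 375 and 243 to 784 CPM, and erythrocyte markers to 468 to 957, 239 to 460 and 325 to 705 CPM. After LPS, 2 of 6 microglia, 4 of 8 pericyte and smooth muscle and 1 of 5 choroid plexus markers fell. All 4 erythrocyte markers tested fell as well, where 8.86% of all genes tested fell. Of these lists, only 1 pericyte and smooth muscle marker rose, where 11.1% of all genes tested rose. The medians were -0.31, -0.38, -0.30 and -0.90 on the log2 scale, in that order. In each group, the mouse with the lowest endothelial sum had the highest neuronal sum. These were sham-vehicle mouse 4 (406 and 22400 CPM), LPS-vehicle mouse 3 (482 and 18120 CPM) and LPS-CPD-4645 mouse 4 (596 and 21740 CPM). Each also had the highest mitochondrial share of its group, at 12.7%, 7.05% and 8.17%. The part of tissue composition in the differences of the 40 genes was not tested.

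**Figure D4:**
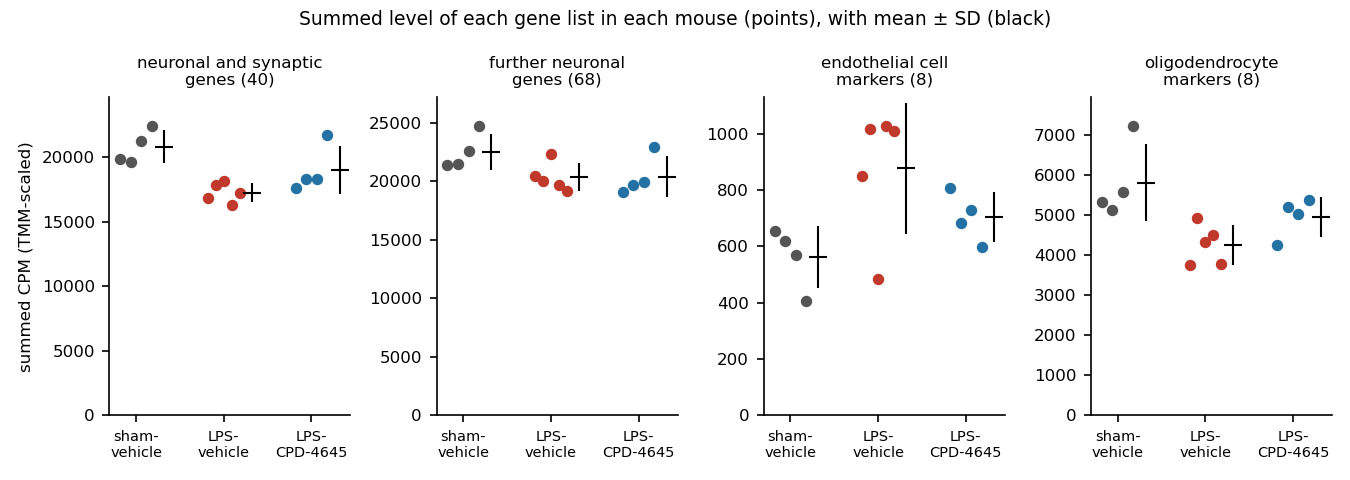
Summed CPM of 4 gene lists in each mouse (points), with the group mean and SD (black), on axes that start at 0. The 5 LPS-vehicle mice lie below the 4 sham-vehicle mice for the 40 neuronal and synaptic genes (16260 to 18120 against 19650 to 22400 CPM) and for the oligodendrocyte markers, whereas 4 of the 5 lie above them for the endothelial markers.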

How the data were processed

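RNA from neurovasculature of 13 mice (1 library per mouse) was sequenced after stranded library preparation. Per the labels and processing notes of the submitters, reads were demultiplexed with bcl2fastq 2.15.0.4 and aligned and counted per gene with STAR 2.5.2a on mouse genome GRCm38 (mm10) with a GENCODE annotation. The authors deposited 1 table of raw gene counts, which was used as it is. Which strand column of the aligner's counts was kept is not given in the sources used here, so genes that overlap on opposite strands are named as such.

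Genes were kept with filterByExpr (minimum count 10, minimum total 15), which left 17285, and all 3 groups were fitted together with edgeR 4.0.16 (R 4.3.3) by the quasi-likelihood test with TMM scaling. "Rose" and "fell" mean p at most 0.05 after Benjamini-Hochberg adjustment over all genes tested, and "called" means that and a change of at least 2-fold, the study's threshold. CPM use TMM library sizes, and RPKM divide them by exon length in a GENCODE annotation of the same build, which matched 47224 of 47643 identifiers and also gave the coordinates. Totals ran from 7813559 to 55133373 counts, and counting intervals would cover counting error only. The edgeR fit was tested on simulated counts, for LPS-vehicle against sham-vehicle only and with the same spread for every gene. The alternatives and the other steps were not tested in this way.

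The genes given with values per mouse were *Gabrb2*, as the only one called, and a list of 20 lead genes, and others are named as chosen after their values were seen. The 40 genes and all other lists were chosen with earlier results of these data known. Alternatives were DESeq2 1.42.0, limma-voom (limma 3.58.1), other filters and size factors, a replicate block, leaving out each mouse, and, added after seeing the data, scaling to the 67 further neuronal genes and leaving out the 2 shallowest libraries. Motifs were searched in RefSeq sequences of GRCm38.p6.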

Additional observations from a re-analysis of the deposited data

Results flagged for a closer look

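In groups of 4 or 5 mice, the gap of the highest or lowest mouse to its nearest neighbour was divided by the range of the group and set against the 95% critical value of Dixon's test. Gaps and ranges were taken on log2 CPM, whereas the values printed below are CPM. Of 120 groups (40 genes in 3 groups), 4 passed, where chance gives about 1 in 20, or 6. *Grin2a*, an NMDA receptor subunit, was at 110.3 CPM in LPS-CPD-4645 mouse 3, against 132.9 to 138.0 CPM in the others of its group. *Grin2b*, another NMDA receptor subunit, was at 178.6 CPM in sham-vehicle mouse 4, against 102.3 to 110.9 CPM. *Calb1*, which encodes the calcium buffer calbindin, was at 132.5 CPM in LPS-CPD-4645 mouse 3, against 167.5 to 172.6 CPM. *Calb2*, which encodes calretinin, was at 208.1 CPM in sham-vehicle mouse 1, against 218.4 to 220.2 CPM, a gap that is small beside the level.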

How the results depend on the processing

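The median of the 40 genes kept its direction in all 3 comparisons under each of the 23 alternatives. After LPS, called genes lower were 2 with limma-voom with quality weights (*Gabrb2* and *Tubb3*), from 1 to 2 without 1 mouse (2 without sham-vehicle mouse 1 or 2 or mouse 2 of LPS-vehicle) and 0 with scaling to the further neuronal genes, which also gave 8 that fell, 2 that rose and a median of -0.064. The count that fell was from 11 to 18 without 1 mouse. In LPS-CPD-4645 against LPS-vehicle mice, called genes higher were from 0 to 1 without 1 mouse and 1 without the 2 shallowest libraries (*Tubb3* in both, the first without LPS-CPD-4645 mouse 1). The count that fell was from 0 to 2 without 1 mouse (0 without mouse 4 of LPS-vehicle or mouse 2 or 3 of LPS-CPD-4645, and 2 without mouse 4 of the latter), 0 without the 2 shallowest libraries and 2 with the replicate number as a block (*Slc17a6* beside *Gria2*). All genes called were 632 against 1019 with a mean count of at least 50. In LPS-CPD-4645 against sham-vehicle mice, the count that fell was from 8 to 19 and the count that rose from 0 to 2 without 1 mouse (0 without sham-vehicle mouse 1 or LPS-CPD-4645 mouse 3, and 2 without LPS-CPD-4645 mouse 1), 2 rose with DESeq2, and scaling to the further neuronal genes gave 2 that fell, 7 that rose and a median of -0.0027. The cause was not tested beyond the fewer samples or the other scale.

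Over all 40 genes, 3 comparisons and 23 alternatives, signs turned only for fold changes that had not passed. After LPS these were *Camk2a*, at -0.012 with quality weights, -0.0024 with no filter and -0.047 to 0.055 without 1 mouse, *Gria2* at -0.028 to 0.14, *Grin2a* at -0.095 to 0.0058 and *Pvalb* at -0.00021 to 0.15 without 1 mouse (-0.000205 for *Pvalb* without the 2 shallowest libraries). In LPS-CPD-4645 against LPS-vehicle mice, leaving out 1 mouse gave -0.064 to 0.087 for *Dlg4*, -0.095 to 0.040 for *Gad1*, -0.054 to 0.099 for *Pvalb*, -0.0022 to 0.10 for *Stmn2*, -0.091 to 0.044 for *Vip*, -0.25 to 0.034 for *Nefh*, -0.18 to 0.0046 for *Nefm*, -0.11 to 0.12 for *Syn1*, -0.11 to 0.051 for *Pclo*, -0.083 to 0.048 for *Calb1*, -0.020 to 0.18 for *Calb2* and -0.017 to 0.086 for *Snap91*. In LPS-CPD-4645 against sham-vehicle mice it gave -0.14 to 0.013 for *Slc32a1*, -0.16 to 0.020 for *Syp*, -0.10 to 0.0052 for *Syt1*, -0.098 to 0.079 for *Tubb3* and -0.0031 to 0.14 for *Vip*. Without the 2 shallowest libraries *Nefm* was at 0.038 under CPD-4645 against LPS-vehicle mice, and *Syp* at 0.0092, *Tubb3* at 0.068 and *Vip* at -0.0035 against sham-vehicle mice.

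Scaling to the further neuronal genes turned 6 signs after LPS, to 0.0018 for *Rbfox3*, 0.028 for *Nefm*, 0.048 for *Camk2b*, 0.17 for *Grin2a*, 0.096 for *Shank1* and 0.0058 for *Gad1*. It turned 1 in LPS-CPD-4645 against LPS-vehicle mice, to 0.0041 for *Vip*. It turned 13 in LPS-CPD-4645 against sham-vehicle mice, to 0.15 for *Syp*, 0.17 for *Syt1*, 0.078 for *Snap25*, 0.090 for *Vamp2*, 0.10 for *Bsn*, 0.0051 for *Snap91*, 0.17 for *Tubb3*, 0.036 for *Slc17a7*, 0.054 for *Grin2a*, 0.15 for *Gria1*, 0.13 for *Slc32a1*, 0.14 for *Sst* and 0.035 for *Calb2*.

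Same-numbered mice of different groups deviated together by r = -0.035 to 0.11 over 12 pairs, with 1 over 0.1. Differently numbered mice had r = -0.14 to 0.12 over 44 pairs, with 2 over 0.1. The labels do not say what the numbers stand for, and whether they mark a shared batch was not tested. With the replicate block 17 genes fell after LPS, as without it, but *Calb1* no longer passed and *Slc17a7* did. *Stx1a* was lost and *Slc17a6* gained in LPS-CPD-4645 against LPS-vehicle mice, and *Gad2* was lost and *Snap91*, *Gria2* and *Gad1* gained in LPS-CPD-4645 against sham-vehicle mice. Depth limits *Gabrb2* most, whose lowest count was 17.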
